A study of Mus musculus with 6 samples.

Results

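The genes described here encode proteins with a GAS2 domain, a module that binds microtubules, joined to calponin homology domains that bind actin. They comprise the GAS2 family (Gas2l3, Gas2, Gas2l1 and Gas2l2) and the spectraplakins Macf1 and Dst. Members were picked out by gene symbol, with earlier results of these data known. All 6 symbols were found among the 24421 genes of the deposited table. Of these, 5 reached the expression minimum of 1 FPKM in at least 3 libraries, which 12121 genes passed. FPKM is the number of reads scaled for gene length and library size, which is meant to make levels comparable between genes and between libraries. Comparisons of genes still depend on the length used, and comparisons of libraries on the GC and length trends given below.

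Proteins of this group tie actin filaments to microtubules. GAS2L3 acts late in cell division, at the midzone and midbody of dividing cells, and binds the chromosomal passenger complex, whereas GAS2 and GAS2L1 are known from growth-arrested cells, stress fibres and centrosomes. Macf1 (also called ACF7) and Dst (dystonin, BPAG1) produce very long proteins that guide microtubules along actin, and striated muscle carries long isoforms of both.

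Hearts of C57/Bl6 mouse embryos were taken at E18.5, shortly before birth, and their poly(A) RNA gave 3 wildtype and 3 Gas2l3 -/- libraries by label. Genotype is the only difference the labels give, with no other allele or agent in either group. They do not say which exons were deleted, or whether each library came from its own embryo, so the spread between libraries may be partly technical. The hearts were extracted whole, and in such bulk samples fewer cells of a type and less RNA per cell cannot be told apart.

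Whole reads recovered from the deposited values totalled 3414257 to 7732674 per library. Cardiomyocyte markers were abundant in every library: the 12 genes summed to between 37121 and 54084 FPKM in wildtype-labelled and between 32652 and 37498 FPKM in knockout-labelled libraries. Of the 12, 11 had lower means in the knockout-labelled group (9 with a common total), with a median log2 fold change of −0.39, or −0.17 without wildtype-labelled replicate 3. All 8 markers of cycling cells had lower means in the knockout-labelled group, with sums of 249 to 315 FPKM against 174 to 179 FPKM. The 6 markers of squamous and lung epithelium summed to between 1.16 and 5.13 FPKM over all libraries, those of nerve and glia to between 1.78 and 2.60, and those of skeletal muscle to between 0.446 and 2.76, with Krt5, Myod1 and Pax7 listed at 0 throughout. Libraries also differed within the groups. Across genes, a library's departure from the mean of the 6 was correlated with GC content at 0.70 in wildtype-labelled replicate 3 and at −0.47 and −0.48 in replicate 1 of the 2 groups, and with log gene length at −0.31 and −0.42 in replicate 2 of the 2 groups. Each member is therefore given as deposited and with these trends removed.

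Gas2l3, the gene named in the genotype, is on the minus strand of chromosome 10 between positions 89408823 and 89443967 (mm10, ENSMUSG00000074802.11, 8 annotated transcripts). It is low in GC content, at 41.7% of its longest transcript. The 250 bases before its RefSeq start (chr10:89443968-89444217, minus strand, GRCm38.p6) are shown because the gene belongs to the cell division programme. That programme is controlled through the CHR (cell cycle genes homology region, TTTGAA or TTCGAA) bound by the DREAM and B-MYB-MuvB complexes, often beside a CCAAT box bound by NF-Y. The capitals mark a CCAAT box in reverse orientation, 17 to 13 bases before the start, and a CHR match, 8 to 3 bases before it.
Gas2l3 promoter: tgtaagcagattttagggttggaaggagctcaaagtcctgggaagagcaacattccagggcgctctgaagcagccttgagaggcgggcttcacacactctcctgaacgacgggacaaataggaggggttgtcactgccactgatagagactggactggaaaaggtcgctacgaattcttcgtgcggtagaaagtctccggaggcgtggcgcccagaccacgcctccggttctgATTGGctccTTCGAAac
Both strands were searched for these letters. A CHR match is in 17.1% and a CCAAT match in 33.8% of the 32851 promoters of the same length, so neither is rare. Promoter entries were matched for Gas2, Gas2l2, Macf1 and Dst too, and none of their 6 windows held the same pairing close to the start: the downstream start of Gas2 has TTTGAA 51 to 46 bases and CCAAT 226 to 222 bases before it, and that of Dst has CCAAT alone. These matches are letters in a window and say nothing of binding.

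Reads of Gas2l3 were present in every library. The wildtype-labelled replicates 1, 2 and 3 stood at 10.3, 4.12 and 2.48 FPKM, from 262, 212 and 102 reads, and the knockout-labelled replicates at 4.03, 2.99 and 3.06 FPKM, from 176, 109 and 143 reads. The range of the wildtype-labelled group enclosed the whole knockout-labelled group, with its highest library far above and its lowest just below all others. Means were 5.64 ± 4.14 FPKM (SD, n = 3) against 3.36 ± 0.578 FPKM. Counting error alone gives a coefficient of variation of 7.82% in the wildtype-labelled libraries, where 73.4% was observed, and 8.53% in the knockout-labelled ones, where 17.2% was observed. The log2 fold change, knockout minus wildtype, was −0.47 (SE 0.44, 95% interval −1.48 to 0.54, adjusted p = 0.966, limma on log2(FPKM + 0.5), a scale that understates changes of low genes). It was 0.047 without wildtype-labelled replicate 1. A level per gene does not show which exons its reads come from. The level of Gas2l3 therefore cannot check the genotype, and directions refer to the libraries as labelled.

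Removing the GC and length trends brought the Gas2l3 libraries of each group closer together. On the log2 scale the wildtype-labelled replicates then stood at 3.01, 2.39 and 1.94 and the knockout-labelled ones at 1.80, 2.02 and 1.88. Every knockout-labelled library was now below the wildtype-labelled library of its own replicate number, with differences of −1.21, −0.37 and −0.057, although wildtype-labelled replicate 3 still lay below knockout-labelled replicate 2. How common such an order of the pairs is among all genes is not given here. With the replicate number as a block the difference was −0.55 (SE 0.24, 95% interval −1.13 to 0.042, adjusted p = 0.455, limma). When GC content and length were removed one after the other rather than in 1 fit, a choice made after the values were seen, the lowest wildtype-labelled value was 2.18 and the highest knockout-labelled value 1.94, so the groups separated. The share of all genes whose groups separate downward was 8.51% under that setting and 8.76% under the joint fit. The difference was then −0.66 (SE 0.22, 95% interval −1.18 to −0.14, adjusted p = 0.397, limma with the replicate block), and was not called in either version.

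**Figure D1:**
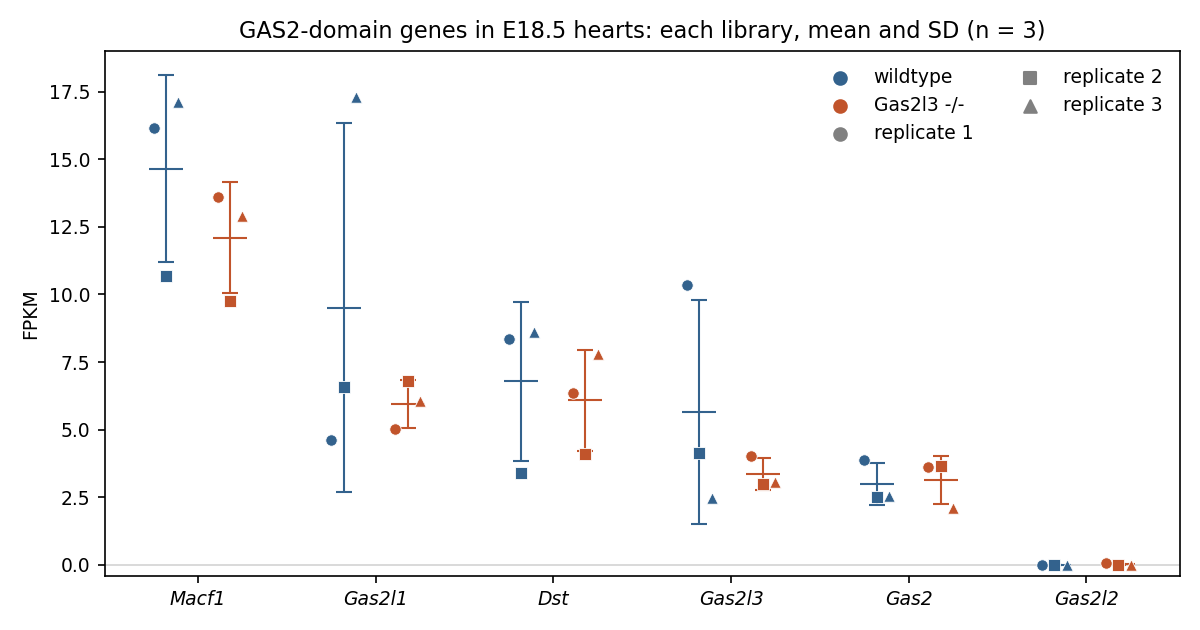
FPKM of each of the 6 genes in every library (points, shaped by replicate number), with the group mean (bar) and SD (whisker, n = 3). The groups overlap for every gene, wildtype-labelled replicate 1 is highest for Gas2l3 (10.3 FPKM), wildtype-labelled replicate 3 for Gas2l1 (17.3 FPKM), and Gas2l2 lies at or near 0.

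None of the closest relatives of Gas2l3 was called higher or lower in the knockout-labelled hearts under the main test or any alternative. Gas2 (plus strand of chromosome 7, 51862015 to 51994975), a caspase substrate first found in growth-arrested cells, had FPKM of 3.87, 2.52 and 2.53 across the wildtype-labelled replicates (in the order 1, 2, 3, as in what follows). Across the knockout-labelled replicates its FPKM were 3.62, 3.65 and 2.10. Only 31 to 50 reads per library lay behind these values, and counting error of 17.0% and 15.9% makes up a large part of the observed spread of 26.0% and 28.4%. The groups overlapped, with the highest library among the wildtype-labelled and the lowest among the knockout-labelled. The log2 fold change was 0.050 (SE 0.30, 95% interval −0.64 to 0.74, adjusted p = 0.988, limma), which corresponds to a fold between 0.644 and 1.66. With trends removed it was −0.18 (SE 0.25, replicate block). Exons of Gas2 share 253 bases with Fancf on the opposite strand, a gene of at most 4.06 FPKM, and whether the counting used strand is not given in the sources used here.

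Gas2l1, which binds actin and microtubule ends and occurs at centrosomes, is on the minus strand of chromosome 11 (5054132 to 5065327) and has a GC content of 57.3%. Its FPKM were 4.63, 6.58 and 17.3 across the wildtype-labelled replicates, from 94, 271 and 571 reads. Across the knockout-labelled replicates they were 5.03, 6.79 and 6.04. Replicate 3 of the wildtype-labelled group was the outlying library, the same one in which genes rich in GC content were high and Gas2l3 was lowest. The other 5 libraries lay within 4.63 to 6.79 FPKM. The log2 fold change was −0.43 (SE 0.43, 95% interval −1.42 to 0.56, adjusted p = 0.966, limma). Leaving out wildtype-labelled replicate 3 brought it to 0.089. With trends removed that library still stood highest, at 3.71 on the log2 scale against 2.48 to 2.98 in the others. Knockout minus wildtype, the pairs of replicates 1, 2 and 3 then differed by 0.078, 0.0049 and −1.03. The log2 fold change with trends removed was −0.31 (SE 0.24, adjusted p = 0.626, limma with the replicate block). With trends removed in turn it was −0.19 (SE 0.20, replicate block).

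Gas2l2, which is known from ciliated epithelia, was close to undetected. A single read was recovered, in knockout-labelled replicate 1, and none in the other 5 libraries. A count of 0 allows up to 3 reads, which correspond to between 0.134 and 0.271 FPKM in those libraries. Gas2l2 did not reach the expression minimum of the main test, was not called when that minimum was dropped (adjusted p = 0.947, limma), and is given no fold.

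The spectraplakin Macf1 (minus strand of chromosome 4, 123349633 to 123684360, 16 annotated transcripts) had the highest mean of the 6 genes. Its FPKM were 16.1, 10.7 and 17.1 across the wildtype-labelled replicates and 13.6, 9.77 and 12.9 across the knockout-labelled replicates, from 1235 to 2448 reads. In both groups replicate 2 was the lowest library. The knockout-labelled library was the lower one in each of the 3 pairs of equal replicate number, with log2 differences of −0.24, −0.12 and −0.39. The share of all tested genes that were lower in all 3 pairs is not given here, so this count has no background. The log2 fold change was −0.25 (SE 0.28, 95% interval −0.88 to 0.38, adjusted p = 0.966, limma). With trends removed the difference was −0.20 (SE 0.17, adjusted p = 0.650, replicate block) and the first pair turned to 0.14. The cardiomyocyte markers, at a median of −0.39, had lower means too, and their part in the values of Macf1, the plakins and Actn2 was not tested.

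Dst is on the plus strand of chromosome 1 (33908225 to 34308661, 20 annotated transcripts), and its largest differences were between replicate numbers. Its FPKM were 8.36, 3.40 and 8.60 across the wildtype-labelled replicates and 6.36, 4.08 and 7.81 across the knockout-labelled replicates, so that replicate 2 was lowest in both. The length that its FPKM imply is 29.9 kb, the longest of the members and longer than its longest annotated transcript of 23.3 kb. With GC and length trends removed, the SD of Dst over the 6 libraries went from 0.52 to 0.16 on the log2 scale, while the median over genes went from 0.41 to 0.27. All 6 libraries then lay between 2.54 and 2.95. Dst was itself among the genes to which these trends were fitted, and the part of that in its narrower spread was not tested. The log2 fold change was −0.089 as deposited (SE 0.39, 95% interval −0.98 to 0.80, adjusted p = 0.984, limma) and 0.023 with trends removed (SE 0.15, 95% interval −0.33 to 0.38, replicate block).

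**Figure D2:**
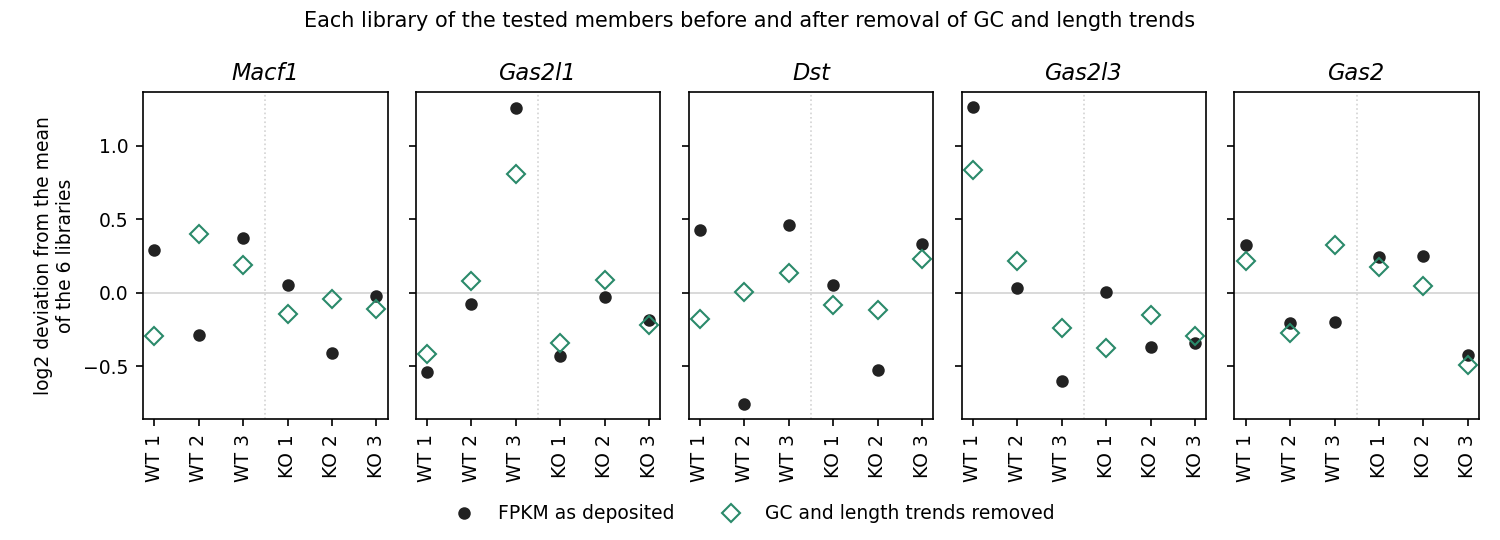
Log2 deviation of each library (WT, wildtype-labelled; KO, knockout-labelled; replicates 1 to 3) from the mean of the 6 libraries for the tested genes, as deposited (filled points) and with GC and length trends removed (open diamonds). The Dst libraries close in on 0, whereas Gas2l3 in wildtype-labelled replicate 1 and Gas2l1 in wildtype-labelled replicate 3 stay the highest of their rows.

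Ordered by mean FPKM over the 6 libraries, the genes ran from Macf1 (13.4) through Gas2l1 (7.73), Dst (6.44), Gas2l3 (4.50) and Gas2 (3.05) to Gas2l2 (0.00875). The median of all tested genes was 10.4 FPKM, so Macf1 was above it and the other members below. Macf1 exceeded Dst in all 6 libraries, at a ratio between 1.65 and 3.14, and exceeded Gas2l1 in 5. Gas2l1 and Dst could not be ordered, as each was above the other in 3 libraries. By FPKM, Gas2l3 was above Gas2 in 4 libraries of 6 and below Dst in 4, so on that scale its place between them lay within the spread. With reads divided by the longest annotated transcript instead, Macf1 was highest in 4 libraries and Gas2l1 in 2. Gas2l3 then lay above Gas2 and below Dst in every library, so its place depends on the length used. The longest transcript is 3.16 kb for Gas2 and 3.57 kb for Gas2l1, where FPKM imply 2.13 and 5.39 kb. Gas2l3 made up 23.8%, 15.1% and 5.16% of the summed FPKM of the 6 genes in wildtype-labelled replicates 1, 2 and 3, and 12.3%, 11.0% and 9.59% in the knockout-labelled replicates. Expression of the other 5 genes together was 33.0, 23.2 and 45.6 FPKM in the wildtype-labelled replicates and 28.7, 24.3 and 28.9 FPKM in the knockout-labelled ones, again with overlapping groups.

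The comparison of the groups asks whether the relatives of Gas2l3 are raised where it is labelled as deleted. None of the 5 tested genes was called by limma at an adjusted p under 0.05, in a table where the background was also 0% (0 of 12121 genes, with 394, or 3.25%, at an unadjusted p under 0.05, and 6.01% with the replicate block). With trends removed the background was 0.00854% called (7.95% at an unadjusted p under 0.05), and with trends removed in turn 0.0171% (7.77%); with the block added, 0 genes were called under both (11.4% and 11.0% at an unadjusted p under 0.05), and no member was called under any of these. Voom on the recovered reads called 0 too, with 3.09% at an unadjusted p under 0.05. Of the 5 tested genes, Gas2l3 itself, Gas2l1, Macf1 and Dst had a lower mean in the knockout-labelled group, and Gas2 a higher one. A lower mean was found for 51.0% of all tested genes. With a common total Gas2l3, Gas2l1 and Macf1 had a lower mean, and with quantile normalization all 5. Without wildtype-labelled replicate 1 only Gas2l1 and Macf1 had a lower mean. The groups did not overlap for 0 of the 5 as deposited, where they did not overlap for 9.76% of all tested genes. With trends removed in 1 fit this was again 0 of the 5, beside 15.5% of all genes. With trends removed in turn the groups separated for Gas2l3 but for no other member, beside 15.0% of all genes. The 95% intervals bound what could have gone unseen: as a fold, the upper limits were 1.66 for Gas2, 1.47 for Gas2l1, 1.30 for Macf1 and 1.74 for Dst, and the lower limits 0.644, 0.374, 0.543 and 0.508. With trends removed and the replicate block, the upper limits were 1.33, 1.20, 1.15 and 1.30. These narrower limits rest on a pairing that was read from the same data, and on trends fitted to the same data. Over the alternatives run they reached at most 2.22 for Gas2, 1.77 for Gas2l1, 1.75 for Macf1 and 2.28 for Dst. For Gas2, Macf1 and Dst that highest limit came from scaling all libraries to a common total, a step that brought the median log2 fold change of all genes from −0.0089 to 0.15. A smaller rise cannot be told from no change with these libraries.

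The authors' deposited table gave values of the same sign for these genes. In the authors' deposited table the log2 fold change was −0.46 for Gas2l3 (SE 0.30), −0.43 for Gas2l1 (SE 0.30), −0.22 for Macf1 (SE 0.25), −0.11 for Dst (SE 0.29) and 0.056 for Gas2 (SE 0.29), each with an adjusted p of 0.998. Of the 12243 genes with an adjusted p in the authors' deposited table, 9 were under 0.05, or 0.0735%.

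**Figure D3:**
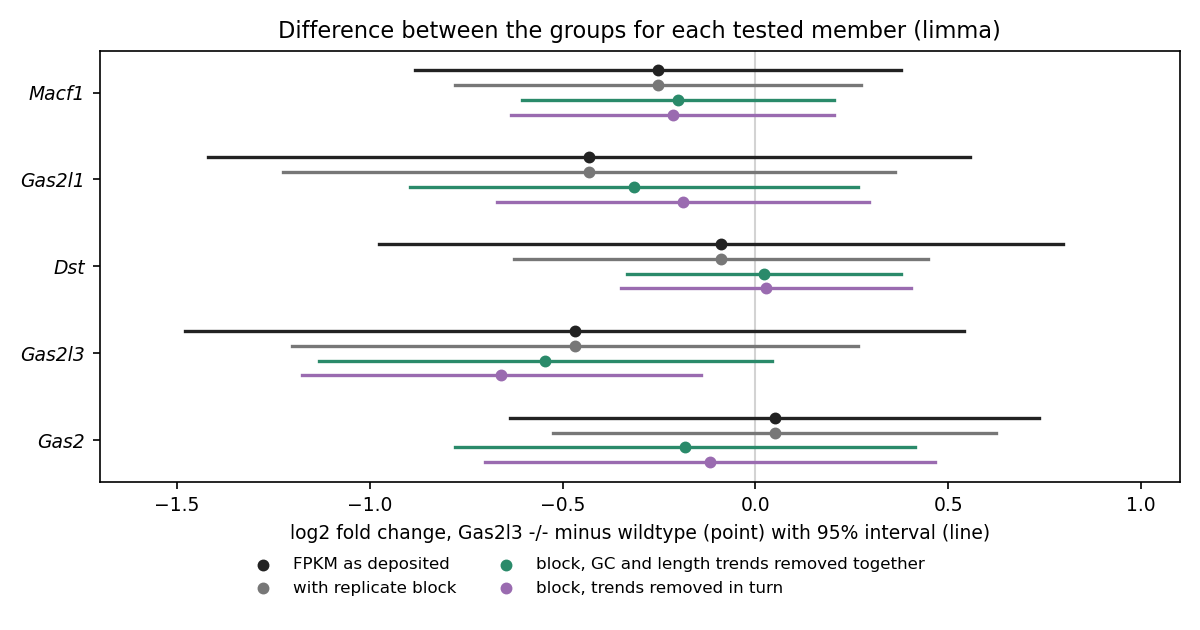
Log2 fold change (point) and 95% interval (line) of each tested gene, knockout-labelled minus wildtype-labelled, under 4 treatments of the data. As deposited, the interval of each gene is narrower with the replicate block than without, and of the intervals drawn only that of Gas2l3 with trends removed in turn (−1.18 to −0.14) leaves out 0; no gene was called.

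Other proteins that crosslink the cytoskeleton were read from lists chosen for their roles. Among the remaining plakins, 3 of 5 were tested, and all 3 had lower means (median log2 fold change −0.40, against −0.0089 over all tested genes), with 0 called. Plec, which encodes plectin, a linker of intermediate filaments, had FPKM of 20.2, 9.79 and 29.2 across the wildtype-labelled replicates and of 14.2, 11.3 and 14.4 across the knockout-labelled replicates. Dsp, the desmosomal desmoplakin, was at 79.3 ± 27.9 against 59.7 ± 18.6 FPKM (SD, n = 3), and Ppl (periplakin) at 1.53 ± 0.406 against 1.35 ± 0.256 FPKM. In each the groups overlapped. Without wildtype-labelled replicate 3 the plakin median was −0.14, without knockout-labelled replicate 2 −0.12 and without wildtype-labelled replicate 2 −0.64. The plakin split was 2 lower and 1 higher with a common total, and the median was −0.21 with trends removed in 1 fit and 0.013 with trends removed in turn.

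Genes of microtubule end-binding and plus-end proteins, only some of them partners of spectraplakins or GAS2L1, were listed next. They split into 4 higher and 9 lower means of 13 tested (median −0.066), with 0 called. With a common total the split was 10 higher and 3 lower. The median was −0.0086 without knockout-labelled replicate 2, −0.021 without wildtype-labelled replicate 1 and −0.16 without knockout-labelled replicate 1. Mapre1, which encodes the end-binding protein EB1, had means of 29.2 ± 9.75 FPKM (wildtype-labelled) and 37.7 ± 2.18 FPKM (knockout-labelled), where wildtype-labelled replicate 3 (18.1 FPKM) stood apart. The microtubule polymerase gene Ckap5 had a log2 fold change of −0.63 (SE 0.35), and Clasp1, whose product stabilises microtubules at the cortex, of −0.42 (SE 0.27). The depolymerising kinesin gene Kif2c was the 1 gene of the 13 whose groups did not overlap, at 11.5 to 16.2 FPKM against 7.86 to 10.3 FPKM, where 9.76% of all tested genes did not overlap.

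Among further genes listed as linkers of actin and microtubules, 11 of 14 tested had lower means (median −0.16), again with 0 called. With a common total 7 of 14 were lower. The 14 include Cyfip1 (0.16) and Nckap1 (−0.011), whose products regulate actin assembly. The median was −0.0020 without wildtype-labelled replicate 3 (7 of 14 lower), −0.041 without knockout-labelled replicate 2 and −0.24 without wildtype-labelled replicate 2. With trends removed it was 0.015 (5 lower, 6 higher) over the 11 genes with a GC value, too few of the 14 to stand for the list. The formin genes Diaph1, Diaph2 and Diaph3, listed in the table under the older symbols Diap1, Diap2 and Diap3, had log2 fold changes of −0.36 (SE 0.28), −0.39 (SE 0.28) and −0.22 (SE 0.26), and Daam1 of −0.28 (SE 0.25). Diaph2 was the 1 gene of the 14 whose groups did not overlap, at 1.57 to 2.60 FPKM against 1.25 to 1.56 FPKM, again beside 9.76% of all tested genes. Actin crosslinkers that share the calponin homology domain split into 8 higher and 11 lower of 19 tested (median −0.042), with 0 called; 14 were higher with a common total and 12 with quantile normalization. Leaving out 1 library moved that median between −0.19 (wildtype-labelled replicate 2) and 0.10 (wildtype-labelled replicate 3), and to 0.053 without knockout-labelled replicate 2. Of the 19, the groups did not overlap for 1 lower gene, Sptb, and 1 higher gene, Lcp1, again beside 9.76% of all tested genes. Sptb, an erythroid and muscle spectrin, was lower in every knockout-labelled library, at 8.21 to 12.8 against 5.38 to 7.63 FPKM (adjusted p = 0.966, limma). Lcp1, which encodes the plastin of blood cells, was higher in every knockout-labelled library, at 4.49 to 6.06 against 6.92 to 7.03 FPKM; macrophage markers summed to between 39.1 and 63.7 FPKM in wildtype-labelled and between 63.1 and 106 FPKM in knockout-labelled libraries, and their part in that result was not tested. Actn2, the alpha-actinin of the cardiac Z-disc, was at 714 ± 186 against 532 ± 116 FPKM, and Cnn3 at 112 ± 23.7 against 138 ± 6.39 FPKM.

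Genes whose products bind GAS2L3 or act beside it in division, or that regulate such genes, had the lowest median of the lists plotted. Of 15 tested, 12 had lower means (median −0.63), 0 were called, and the groups did not overlap for 7, all lower (background in that direction 4.74%). Birc5 (survivin), a subunit of the chromosomal passenger complex, had FPKM of 24.4, 25.0 and 32.0 across the wildtype-labelled and 14.3, 15.8 and 14.8 across the knockout-labelled replicates (log2 fold change −0.83, SE 0.24, adjusted p = 0.966, limma). Cdca8 (borealin) and the kinase gene Aurkb of the same complex were at −0.84 (SE 0.27) and −0.70 (SE 0.23), and Racgap1 of centralspindlin at −0.82 (SE 0.26). The 3 genes with higher means, Lin9 (0.15), Lin52 (0.069) and Lin54 (0.0013), encode subunits of the MuvB core; Lin37, another subunit, was at −0.51, and with trends removed all 15 had lower means. Lower levels of division genes in these libraries were already known when this list was drawn up, so the list gives no independent evidence of a direction. Side by side with Gas2l3, at −0.55 with trends removed, this list had a median of −0.65 and the markers of cycling cells one of −0.68. The values parted without wildtype-labelled replicate 1, as deposited: Gas2l3 was at 0.047, this list at a median of −0.57 and the cycling markers at −0.54. The part of fewer dividing cells in the Gas2l3 value was not tested.

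**Figure D4:**
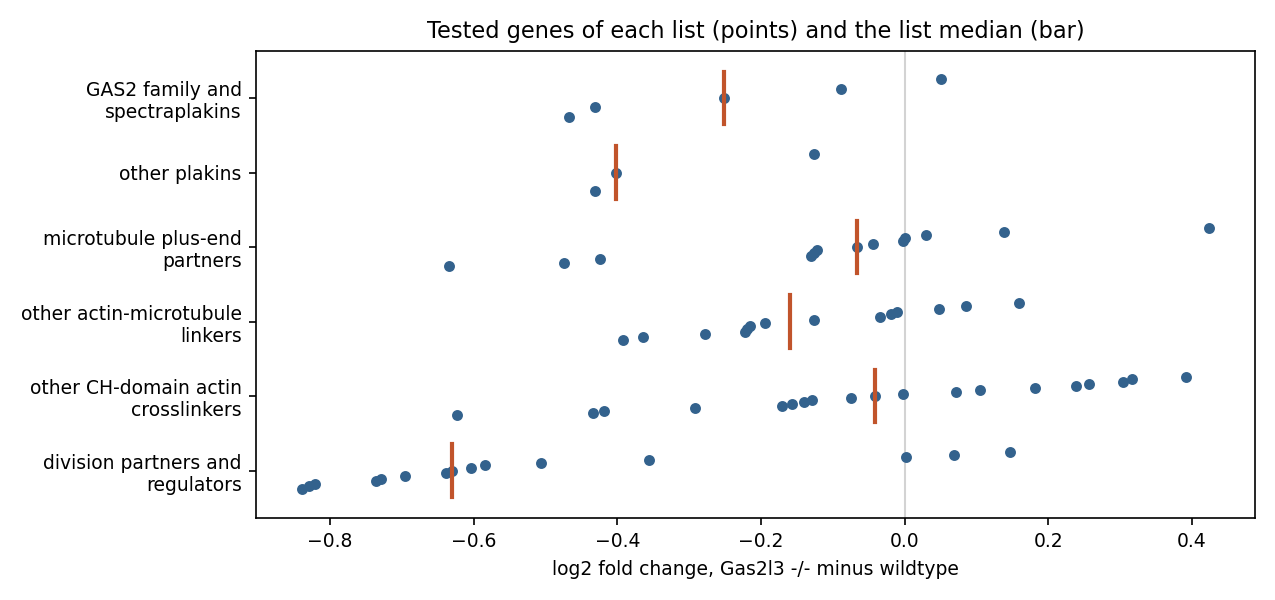
Log2 fold change, knockout-labelled minus wildtype-labelled, of each tested gene (points) in the group described here and in 5 lists of related genes, with the list medians (bars). Medians lie between −0.63, in the division list, and −0.042, in the other actin crosslinkers; no gene of any list was called.

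Genes whose pattern over the 6 libraries was most like that of Gas2l3 were sought by the root mean square difference of log2 values centred on each gene's mean. As deposited, the nearest included Mns1 (0.13), Cep97 (0.16), Caprin2 (0.17) and Acrbp (0.17), where the median over genes was 0.70. These 4 were highest in wildtype-labelled replicate 1 and lowest in, or close to, wildtype-labelled replicate 3: Mns1 had FPKM of 8.87, 3.72 and 2.64 across the wildtype-labelled and 4.29, 3.29 and 3.37 across the knockout-labelled replicates. With trends removed, a version added after the values were seen, the nearest were Pif1 (0.063), Mdm1 (0.12), Nek2 (0.12), Ccdc136 (0.13) and Arhgap33 (0.13), with a median over genes of 0.48. Pif1 encodes a DNA helicase and Nek2 a centrosomal kinase of mitosis. Nek2 had FPKM of 18.4, 13.3 and 10.1 across the wildtype-labelled and 8.94, 8.64 and 9.95 across the knockout-labelled replicates. None of these 5 was among the 4 named as deposited. The nearest to Gas2l1 as deposited were Dpm2 and Pskh1, to Gas2 Ap4m1 and Zfp119a, and to Dst Herc2. For Macf1 they were Mybpc3 (0.039), which encodes a myosin-binding protein of the cardiac sarcomere, and Slc20a2 (0.056). Mybpc3 had FPKM of 901, 620 and 967 across the wildtype-labelled and 780, 601 and 768 across the knockout-labelled replicates.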

How the data were processed

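Libraries were made from poly(A) RNA, per the labels' protocols. FastQC, DESeq2 and build mm10 are named in the submitters' processing notes; which aligner and counter were used is not given in the sources used here. The authors deposited FPKM for each gene in each library, per the file headers. Their other deposited table compares the groups, holds several units (log2 fold change, p-value) and is quoted as theirs. From the values, FPKM were scaled by size factors, and all 94235 values above 0 gave whole reads within a tolerance of 0.01 (100%). Reads carry no molecular identifiers, so floors of 3 reads and counting errors cover counting error only.

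Groups were compared two-sided with limma 3.58.1 in R 4.3.3 (eBayes, trend on mean expression) using log2(FPKM + 0.5), on genes at 1 FPKM or more in at least 3 libraries, with Benjamini-Hochberg adjustment over all 12121 and a threshold of 0.05. It was tested on simulated data. These held larger changes than the members showed, and no GC trends, length trends or replicate pairing. For 96.6% of tested genes, GC content was read from the longest transcript in GENCODE M21 (GRCm38, the same build as mm10). Loess (span 0.3) removed trends of each library on GC and on the gene length that reads per FPKM give. Libraries of equal replicate number deviated together (correlations of 0.47, 0.44 and 0.19 across genes; the pairing comes from the data, as labels only number the samples), so a replicate block was fitted beside the main test. With trends removed these correlations were 0.29, 0.36 and 0.14. Other alternatives were pseudocounts, filters, scalings, voom on recovered reads and leaving out each library. Members and lists were chosen with earlier results of these data known. From each list up to 4 tested genes of smallest p were named, and for likeness 5 genes for Gas2l3 and 2 for each other tested member, of which 2 in all are not reported here; predicted genes were not named. Lin9, Lin37, Lin52, Lin54 and the genes nearest with trends removed were named after their values were seen. Markers of fibroblast, endothelial, smooth muscle, erythroid and epicardial cells were also listed. Their median log2 fold changes were 0.35, 0.081, 0.071, 0.42 and 0.031, with 0 called. The erythroid median rests on 3 of 6 genes, and Hbb-bt and Hba-a1 were at 0 in every library. Erythroid markers summed to 123 FPKM in knockout-labelled replicate 1, to 29.1 and 44.9 in replicates 2 and 3, and to 28.0 to 49.5 in wildtype-labelled libraries. Promoter sequences are from RefSeq on GRCm38.p6.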

Additional observations from a re-analysis of the deposited data

How the results depend on the processing

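None of the 5 tested genes was called under any of the alternatives run, and the lowest adjusted p was 0.397 (Gas2l3, replicate block, trends removed in turn). Macf1 stayed lower in all 18. With 1 library left out, the log2 fold change ran from −0.88 to 0.047 for Gas2l3, from −0.81 to 0.089 for Gas2l1, from −0.064 to 0.27 for Gas2, from −0.49 to 0.15 for Dst and from −0.46 to −0.11 for Macf1. The sign of Gas2l3 turned without wildtype-labelled replicate 1 (0.047), that of Gas2l1 without wildtype-labelled replicate 3 (0.089), that of Gas2 without wildtype-labelled replicate 2 or 3 or knockout-labelled replicate 1 or 2, and that of Dst without wildtype-labelled replicate 1 or 3 or knockout-labelled replicate 2. Gas2 turned to −0.038 with quantile normalization, −0.18 with GC and length trends removed (with or without the replicate block) and −0.12 with trends removed in turn. Dst turned to 0.078 with a common total, 0.023 with trends removed and 0.027 with trends removed in turn, with or without the replicate block; the cause was not tested. With trends removed and no block, limma called 1 gene in the whole table, Ppp1r1b, and with trends removed in turn 2, Ppp1r1b and Cacng6, where 0 were called as deposited. The replicate block, added to these, left 0 called, and it changed no call of a member. Macf1 was highest in 5 libraries by FPKM and in 4 per longest transcript. Gas2l3 and Gas2 lie under a mean of 5 FPKM and had no value with that filter; Gas2l2 had a value only with no filter on low values. Gas2, with 31 to 50 reads per library, is the tested gene most limited by depth.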
